A study of Mus musculus with 14 samples.

Results

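Protein arginine methyltransferases were followed across heart and hippocampus of mouse pups and adults. The set held 8 genes, Prmt1, Prmt2, Prmt3, Prmt5, Prmt6, Prmt7, Prmt8 and Carm1, of 18193 genes with a probe set of their own on the array. Members were taken as every probe set annotated with only 1 of these genes, which gave 16 of 45037 probe sets, and no probe set named a member together with another gene. The family was chosen from these same arrays with the values of Prmt8 in view, so Prmt8 is described without a test and is left out of every count of calls. The other 7 genes, with 15 probe sets, were tested.

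The study hybridized RNA of C57BL/6 mice, an inbred strain without any engineered allele, to 14 Affymetrix arrays, each measuring 1 sample in 1 colour. Adult hippocampus and adult heart RNA was bought from a supplier, came from males 10 weeks old and was represented by 2 biological replicates a tissue with 2 technical arrays each. Pup hippocampus and pup heart mRNA was isolated from tissue of animals 7 days old, sex not given, with 3 biological replicates a tissue and 1 array each. Age therefore cannot be told apart from RNA source and preparation. Technical arrays were averaged, which left 10 biological samples. Nothing in the labels ties the replicates to separate animals, and the p-values then reflect how far these particular samples scatter, which can include technical scatter. A further label counts the 4 adult arrays per tissue as 4 biological replicates, and that reading was run as an alternative.

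These enzymes move a methyl group from S-adenosylmethionine onto the side-chain nitrogens of arginine in other proteins. Type I members, among them Prmt1, Prmt2, Prmt3, Prmt6, Prmt8 and Carm1, place both methyl groups of dimethylarginine on the same nitrogen. Prmt5, a type II enzyme, places them on separate nitrogens, and Prmt7, a type III enzyme, stops at monomethylarginine. Their best known substrates are RNA-binding proteins rich in arginine and glycine, spliceosomal Sm proteins, ribosomal proteins and histones. Prmt8 is known as a close relative of Prmt1 that is anchored to the plasma membrane by a lipid at its start and is found mainly in brain neurons.

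Values are the deposited log2 expression values, on which a difference of 1 is a doubling of signal, and they ranged between 2.67 and 15.998 over all arrays. Values close to 16 lie near the top of every array. Levels are compared only within a probe set, since the brightness of different probe sets also depends on their probes. Errors of group means are SD between biological samples (adult n = 2, pup n = 3), and errors of differences are SE from 1 limma fit to all probe sets. A probe set was called when the Benjamini-Hochberg adjusted p of limma over all 45037 probe sets was under 0.05, two-sided, and "rose", "fell" and "changed" refer to calls.

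The tissue labels were borne out by their markers. The mean log2 value of 8 neuron genes was 11.21 to 11.71 in adult hippocampus and 12.01 to 12.06 in pup hippocampus, against 9.77 to 9.78 in adult heart and 9.56 to 10.05 in pup heart. The mean of 8 cardiomyocyte genes was 8.77 to 8.80 in adult hippocampus and 9.16 to 11.35 in pup hippocampus, against 13.82 to 14.20 in adult heart and 14.88 to 15.41 in pup heart. Pup hippocampus replicate 1 had the 11.35, and its value for cardiac actin, Actc1, was 14.76, against 12.49 and 10.31 in the other pup hippocampi. Its part in the results was not tested, and counts of members and pathway genes are also given without it. The 18 hybridization control probe sets averaged 10.80 in adult hippocampus and 10.73 in adult heart, against 13.15 in pup hippocampus and 13.16 in pup heart. Adult and pup arrays thus differed in these array controls, in both tissues. Age cannot be told apart from that difference between arrays, and its part in the age comparisons was not tested. In whole tissue, fewer cells that express a gene and less RNA in each cell cannot be told apart.

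Prmt8 had opposite age differences in the tissues. Its single probe set, 1435204_at, read 10.97 and 10.94 in adult hippocampus, against 12.85, 13.11 and 13.56 in pup hippocampus. In heart it read 12.88 and 13.31 in adults, against 10.71, 10.70 and 9.60 in pups. Every adult hippocampus lay below every pup hippocampus, and every adult heart lay above every pup heart. The group means were 10.95 ± 0.02 in adult hippocampus, 13.17 ± 0.36 in pup hippocampus, 13.10 ± 0.30 in adult heart and 10.33 ± 0.64 in pup heart. The order of the means was pup hippocampus, adult heart, adult hippocampus and pup heart. The first pair in that order differed by less than the SD of either group and the last pair by less than the SD of pup heart. Samples of the first pair overlapped, whereas those of the middle pair and of the last pair did not.

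The adult minus pup difference of Prmt8 was -2.22 ± 0.37 in hippocampus, a 4.66-fold lower adult signal, and 2.76 ± 0.37 in heart, a 6.78-fold higher adult signal. Between tissues, hippocampus minus heart was 2.84 ± 0.34 in pups and -2.14 ± 0.41 in adults. The tissue with the higher signal thus changed with age, to heart in adults, against hippocampus in pups. Prmt8 has no second probe set, and the values carry no detection calls. Whether the heart signal of this probe set is Prmt8 transcript was not tested. The age difference in hippocampus minus that in heart came to -4.98 ± 0.53. These values chose the family and carry no p. The 4 adult hippocampus arrays read 10.96, 10.98, 10.97 and 10.91, and the 4 adult heart arrays read 13.42, 12.35, 13.17 and 13.45, so each single adult heart array stood above each adult hippocampus array. The mean of the 8 neuron genes was lower in adult than in pup hippocampus too, at 11.21 to 11.71 against 12.01 to 12.06, with 1 gene called higher and 3 lower. In heart it was 9.77 to 9.78 in adults and 9.56 to 10.05 in pups, with 0 genes called higher and 1 lower. Syt1, Rbfox3 and Gad1 of that list read about as high in heart as in hippocampus. For Gad1 the values were 13.15, 13.34 and 13.49 in pup hippocampus, against 13.75, 14.33 and 13.70 in pup heart. The part of neuron content in the Prmt8 values was not tested. Without pup hippocampus replicate 1 the age difference in hippocampus was -2.38 and the tissue difference in pups was 3.00.

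**Figure D1:**
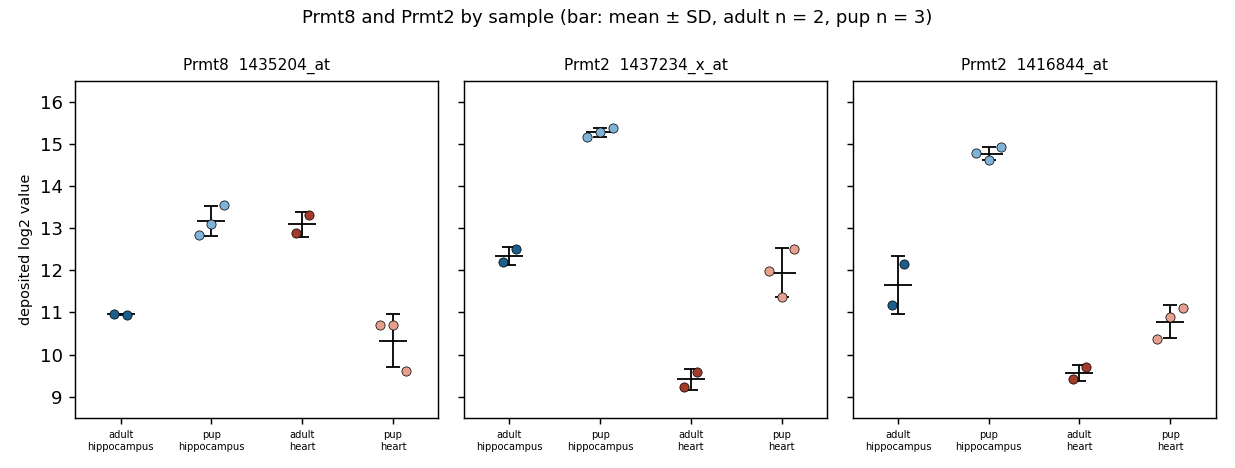
Deposited log2 values (y axis) of the Prmt8 probe set and the 2 Prmt2 probe sets in adult hippocampus, pup hippocampus, adult heart and pup heart (x axis); points are biological samples and bars are means ± SD (adult n = 2, pup n = 3). Prmt8 was lower in adult than pup hippocampus (10.95 against 13.17) and higher in adult than pup heart (13.10 against 10.33), whereas both Prmt2 probe sets were lower in adults in both tissues.

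Prmt2 fell in adults relative to pups in both tissues and was higher in hippocampus than heart at both ages, by both of its probe sets. Prmt2 is a weakly active type I enzyme with an SH3 domain that binds nuclear receptors as a coactivator. Its brighter probe set, 1437234_x_at, read 12.19 and 12.50 in adult hippocampus, against 15.16, 15.30 and 15.38 in pup hippocampus. In heart the same probe set read 9.23 and 9.58 in adults, against 11.99, 11.36 and 12.51 in pups. No adult sample of a tissue overlapped the pups of that tissue, and the pup hippocampus values stood close to the top of the arrays. Its x_at type can pick up other transcripts, so the second probe set is given in full as well.

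The second Prmt2 probe set, 1416844_at, read 11.17 and 12.14 in adult hippocampus, against 14.79, 14.61 and 14.92 in pup hippocampus. In heart it read 9.42 and 9.70 in adults, against 10.37, 10.88 and 11.11 in pups. It kept the order of the first probe set in the age comparison of each tissue and in the tissue comparison of each age, again with no overlap between groups.

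The adult minus pup difference in hippocampus was -2.93 ± 0.33 for 1437234_x_at (limma adjusted p = 0.00115) and -3.12 ± 0.34 for 1416844_at (limma adjusted p = 0.000963). In heart it was -2.54 ± 0.33 (limma adjusted p = 0.00136) and -1.23 ± 0.34 (limma adjusted p = 0.0303). Hippocampus minus heart in pups was 3.33 ± 0.29 (limma adjusted p = 5.72e-05) and 3.99 ± 0.30 (limma adjusted p = 2.04e-05). In adults it was 2.94 ± 0.36 (limma adjusted p = 0.000708) and 2.10 ± 0.37 (limma adjusted p = 0.00385). The age difference in hippocampus minus that in heart was -0.39 ± 0.46 for 1437234_x_at (limma adjusted p = 0.69) and -1.89 ± 0.48 for 1416844_at (limma adjusted p = 0.0614), so neither passed. The heart call of 1416844_at was lost in 6 of 20 alternatives, among them 4 of the 5 that left out a heart sample (pup replicates 2 and 3, adult replicates 1 and 2), where the difference was between -1.07 and -1.37.

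The promoters of Prmt8 and Prmt2 are shown because both genes had more signal in pup hippocampus than in pup heart and less in adult than in pup hippocampus, while they moved oppositely in heart. Each runs 5′ to 3′ on the gene's own strand, here the minus strand, with 250 bases before and 50 after the annotated start, as RefSeq gives it on GRCm38.p6. RefSeq has 2 starts for Prmt8, and the window printed is that of the first, chr6:127769106-127769405, which overlaps the other, chr6:127769110-127769409, in all but a few bases. The Prmt2 window is chr10:76237816-76238115. Capitals mark matches on either strand of 4 motifs. The GC box was searched as GGGCGG. The E-box was searched as CACGTG. The core of the CCAAT box was searched with those letters alone. The TATA box was searched as TATAAA.
Prmt8: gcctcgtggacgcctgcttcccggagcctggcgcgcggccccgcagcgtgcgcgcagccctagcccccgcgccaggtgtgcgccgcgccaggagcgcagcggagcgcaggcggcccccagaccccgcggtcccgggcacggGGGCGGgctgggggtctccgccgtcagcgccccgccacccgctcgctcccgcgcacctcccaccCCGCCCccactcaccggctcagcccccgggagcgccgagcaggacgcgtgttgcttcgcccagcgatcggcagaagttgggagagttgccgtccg
Prmt2: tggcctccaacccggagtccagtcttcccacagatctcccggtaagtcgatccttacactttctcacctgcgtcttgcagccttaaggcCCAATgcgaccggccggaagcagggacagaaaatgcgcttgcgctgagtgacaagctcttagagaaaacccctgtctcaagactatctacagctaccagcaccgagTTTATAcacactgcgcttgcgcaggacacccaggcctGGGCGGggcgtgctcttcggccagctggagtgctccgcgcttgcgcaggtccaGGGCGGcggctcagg
The printed Prmt8 window held 2 GC boxes and none of the other motifs, and the Prmt2 window held 2 GC boxes, 1 CCAAT box and 1 TATA box. Over 27025 promoters of the same length, 35.9% held a GC box, 37.9% a CCAAT box, 14.2% a TATA box and 7.2% an E-box. The windows differed in base composition. Prmt8 had 44 CG dinucleotides and 79.0% G or C, with fewer CG in 97.8% of all promoters, and Prmt2 had 20 CG and 60.3% G or C, with fewer in 73.2%. Prmt1, Prmt3, Prmt5, Prmt6 and Prmt7 also had a window in that set, 7 of 8 genes in all, and their CG counts were 17, 24, 16, 16 and 39 in that order. These matches describe letters and were not related to expression.

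Prmt7 had more signal in every adult than in every pup of the same tissue on all 3 of its probe sets, with 1 of them called in heart. Such separation of the ages was common, at 54.4% of all probe sets in hippocampus and 48.2% in heart. Prmt7 is the monomethylating enzyme of the family. The brightest Prmt7 probe set, 1426096_at, averaged 12.41 ± 0.01 in adult hippocampus and 11.74 ± 0.22 in adult heart, against 11.51 ± 0.37 in pup hippocampus and 10.67 ± 0.53 in pup heart. Its adult minus pup differences, 0.90 ± 0.34 in hippocampus (limma adjusted p = 0.106) and 1.06 ± 0.34 in heart (limma adjusted p = 0.0543), were not called, although no adult overlapped the pups.

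A second Prmt7 probe set, 1451248_at, read 9.00 and 9.36 in adult hippocampus and 8.73 and 8.53 in adult heart, against 8.35, 8.30 and 8.83 in pup hippocampus and 7.62, 7.57 and 7.44 in pup heart. In heart it rose by 1.09 ± 0.25 (limma adjusted p = 0.0149), and in pups it was higher in hippocampus than in heart by 0.95 ± 0.22 (limma adjusted p = 0.0195). In hippocampus its adult minus pup difference of 0.68 ± 0.25 was not called (limma adjusted p = 0.0969), and the age differences of the tissues were not shown to differ (limma adjusted p = 0.571). The heart call was lost in 5 of 19 alternatives, among them without adult heart replicate 1 (0.99) and without adult heart replicate 2 (1.19). The pup tissue call was lost in 3 of 19, among them without pup hippocampus replicate 3 (0.78). The dimmest, 1443011_at, differed by 0.94 ± 0.30 in hippocampus and 0.61 ± 0.30 in heart, also uncalled.

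Prmt3, an enzyme with a zinc finger that methylates ribosomal protein Rps2, had 5 probe sets, of which 1 was called by age, in heart. The adult mean in heart was above the pup mean on all 5. The brightest Prmt3 probe set, 1457332_at, stood near the top of the arrays, at 15.25 ± 0.01 in adult hippocampus and 15.44 ± 0.16 in adult heart, against 14.62 ± 0.15 in pup hippocampus and 14.83 ± 0.20 in pup heart. Every adult lay above every pup of its tissue, but the differences of 0.63 ± 0.23 and 0.61 ± 0.23 were not called (limma adjusted p = 0.0957 and 0.0924). The probe set that was called in heart, 1442719_at, read 12.70 and 13.31 in adult heart, against 11.74, 11.74 and 11.40 in pup heart, and rose by 1.38 ± 0.33 (limma adjusted p = 0.018). In hippocampus it read 12.50 and 11.72 in adults, against 11.81, 11.10 and 11.55 in pups, so there the ages overlapped. The call in heart held in 18 of 20 alternatives. It was lost with the methods' t-test and without adult heart replicate 2, where the difference was 1.07.

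In heart 1454008_at and 1431768_a_at were also higher in every adult, by 1.65 ± 0.54 (limma adjusted p = 0.0607) and 1.15 ± 0.37 (limma adjusted p = 0.0564). The first of these read up to 3.69 apart between technical arrays of 1 adult sample, and the second had group means of 4.94 to 6.09, among the dimmest values of the arrays. The remaining probe set, 1426749_at, had overlapping ages in both tissues.

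Prmt6 fell in adult hippocampus by 1 of its 2 probe sets. Prmt6 places asymmetric dimethylarginine on histone H3 and is known as a transcriptional repressor. The brighter Prmt6 probe set, 1425059_at, was not called in any comparison. It read 10.38 and 9.33 in adult hippocampus, against 12.58, 12.11 and 10.77 in pup hippocampus, and 11.18 and 9.96 in adult heart, against 9.69, 12.16 and 15.29 in pup heart. The spread of the pup hearts (SD 2.80) was wider than any age or tissue difference of this probe set.

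The other Prmt6 probe set, 1434209_at, read 7.75 and 7.44 in adult hippocampus, against 8.95, 9.27 and 9.60 in pup hippocampus, a fall of 1.68 ± 0.42 on the log2 scale (limma adjusted p = 0.0272). In heart it read 8.34 and 8.67 in adults, against 8.12, 7.72 and 9.26 in pups, with adults inside the pup range. The age differences of the tissues were not shown to differ (-1.82 ± 0.59, limma adjusted p = 0.122). The hippocampus call was lost in 5 of 19 alternatives, among them 4 of the 5 that left out a hippocampus sample (pup replicates 2 and 3, adult replicates 1 and 2), where the difference was between -1.52 and -1.84.

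**Figure D2:**
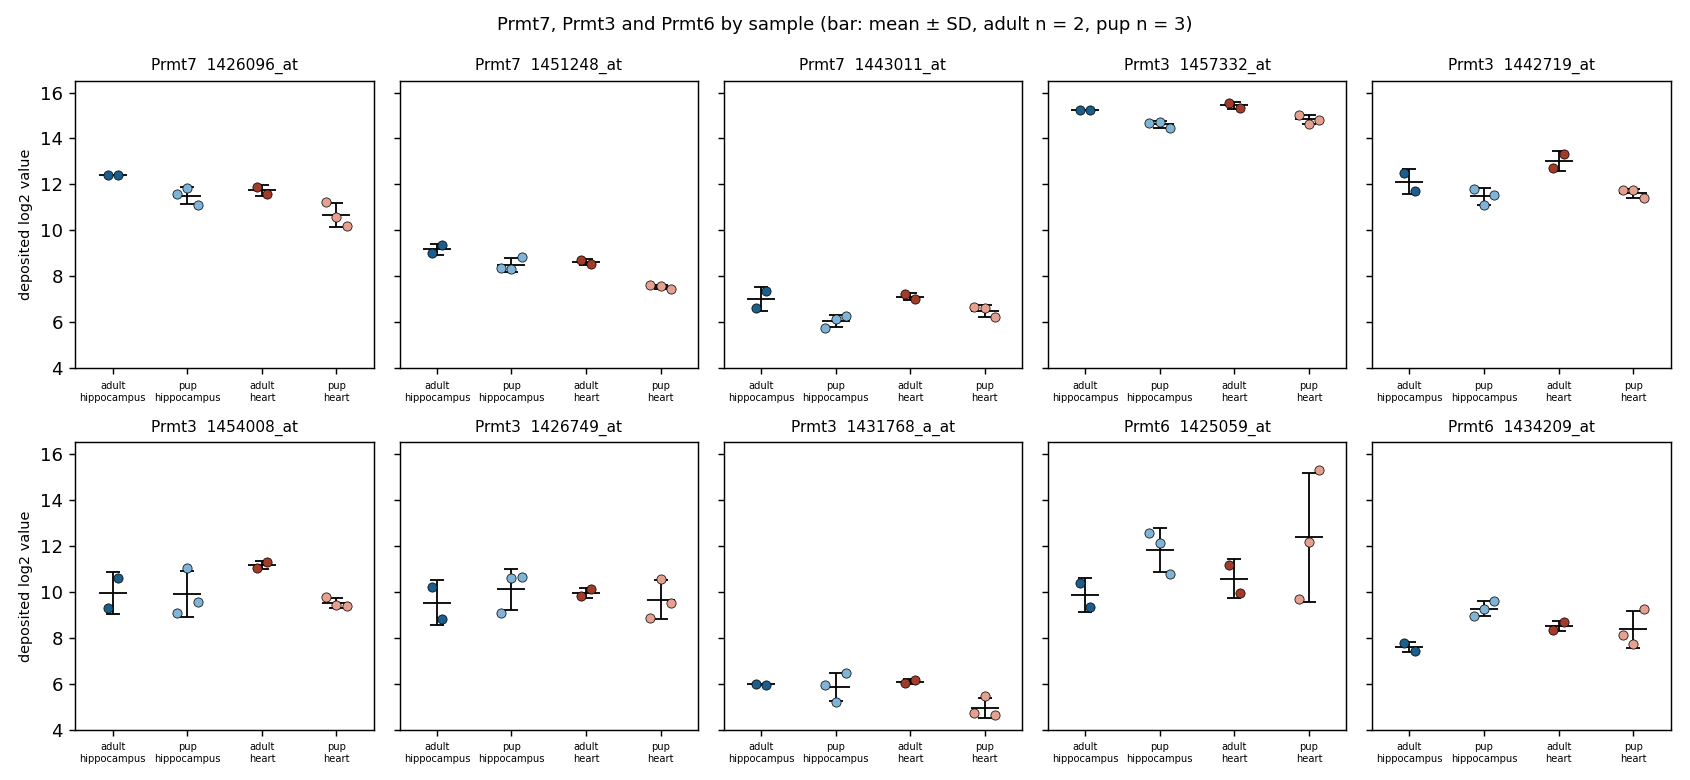
Deposited log2 values (y axis) of the 3 Prmt7, 5 Prmt3 and 2 Prmt6 probe sets in adult hippocampus, pup hippocampus, adult heart and pup heart (x axis); points are biological samples and bars are means ± SD (adult n = 2, pup n = 3). All 3 Prmt7 probe sets lay higher in every adult than in every pup of a tissue, where 54.4% of all probe sets in hippocampus and 48.2% in heart did not overlap between ages, and the pup hearts of Prmt6 1425059_at ran between 9.69 and 15.29.

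Prmt1, Prmt5 and Carm1 had no call in any comparison. Prmt1 is the enzyme that makes most asymmetric dimethylarginine in mammalian cells. Its probe set, 1452787_a_at, read 13.10 and 12.89 in adult hippocampus, against 11.77, 9.84 and 11.02 in pup hippocampus, and 12.74 and 12.27 in adult heart, against 12.56, 13.39 and 10.69 in pup heart. The adult hippocampi lay above all pup hippocampi, by 2.12 ± 0.74 on average, but pups spread widely and the difference was not called (limma adjusted p = 0.0825). It was called without pup heart replicate 3, with every array as a replicate and with only hippocampus in the fit.

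Carm1, a coactivator that methylates histone H3 and splicing factors, read 14.83 and 15.14 on 1419743_s_at in adult hippocampus, against 13.55, 14.66 and 14.20 in pup hippocampus. In heart it read 15.20 and 15.31 in adults, against 14.95, 14.92 and 14.99 in pups, so each adult lay above the pups of its tissue. The differences were 0.85 ± 0.31 in hippocampus (limma adjusted p = 0.0997) and 0.30 ± 0.31 in heart (limma adjusted p = 0.544). Every pup hippocampus lay below every pup heart, with a difference of -0.82 ± 0.28 that was not called (limma adjusted p = 0.0875).

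Prmt5, the main type II enzyme, had the narrowest range of group means among the 16 probe sets. Its probe set, 1427439_s_at, averaged 9.81 ± 0.16 in adult hippocampus, 9.99 ± 0.22 in pup hippocampus, 9.58 ± 0.03 in adult heart and 9.90 ± 0.35 in pup heart. Its 4 differences lay between -0.32 and 0.23, beside SEs of 0.24 to 0.29. The s_at type of this and the Carm1 probe set can match transcripts of more than 1 gene.

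Over the 15 tested probe sets, adult minus pup in hippocampus gave 0 higher and 3 lower calls, both Prmt2 probe sets and 1434209_at of Prmt6, and 14.9% of all probe sets were called. Adult and pup samples did not overlap for 10 of 15, against 54.4% of all probe sets. The median difference was 0.10 over the members and 0.12 over all probe sets. Without pup hippocampus replicate 1 there were again 3 calls, with 10.4% of all probe sets called, and 12 of 15 did not overlap, against 64.9% of all.

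Adult minus pup in heart gave 2 higher calls (Prmt3 1442719_at and Prmt7 1451248_at) and 2 lower calls (both Prmt2 probe sets), with 20.0% of all probe sets called. Adults and pups did not overlap for 10 of 15, against 48.2% of all. The median difference was 0.30 over the members and 0.11 over all. The called differences kept their sign in every alternative, at 1.07 to 1.685 for Prmt3 1442719_at and 0.86 to 1.31 for Prmt7 1451248_at. For Prmt2 they ran between -2.84 and -2.26 (1437234_x_at) and between -1.44 and -1.07 (1416844_at). Fewer members were called without adult heart replicate 1 or 2, and fewer of all probe sets too. Those fits had 1 adult heart sample left.

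Hippocampus minus heart in pups gave 3 higher calls, both Prmt2 probe sets and Prmt7 1451248_at, and 0 lower calls, with 14.3% of all called. The groups did not overlap for 4 of 15, against 30.7% of all. The median difference was 0.37 over the members and -0.10 over all. Without pup hippocampus replicate 1 there were 3 calls, with 9.7% of all called, and 6 of 15 did not overlap, against 38.0% of all. There were 5 calls without either pup hippocampus replicate 2 or pup heart replicate 3.

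In adults hippocampus minus heart gave 2 higher calls, both of Prmt2, and 0 lower calls, with 22.2% of all called. The groups did not overlap for 12 of 15, against 68.4% of all. The median difference was -0.12 over the members and -0.06 over all. The difference between the age differences was called by limma for 0 of the 15 probe sets, with 3.55% of all called. At an unadjusted p under 0.05 limma had 2 of them, Prmt2 1416844_at and Prmt6 1434209_at, and the methods' t-test called 0. Leaving out pup hippocampus replicate 1, limma also called 0, with 2.17% of all called. Both were called without pup heart replicate 3.

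**Figure D3:**
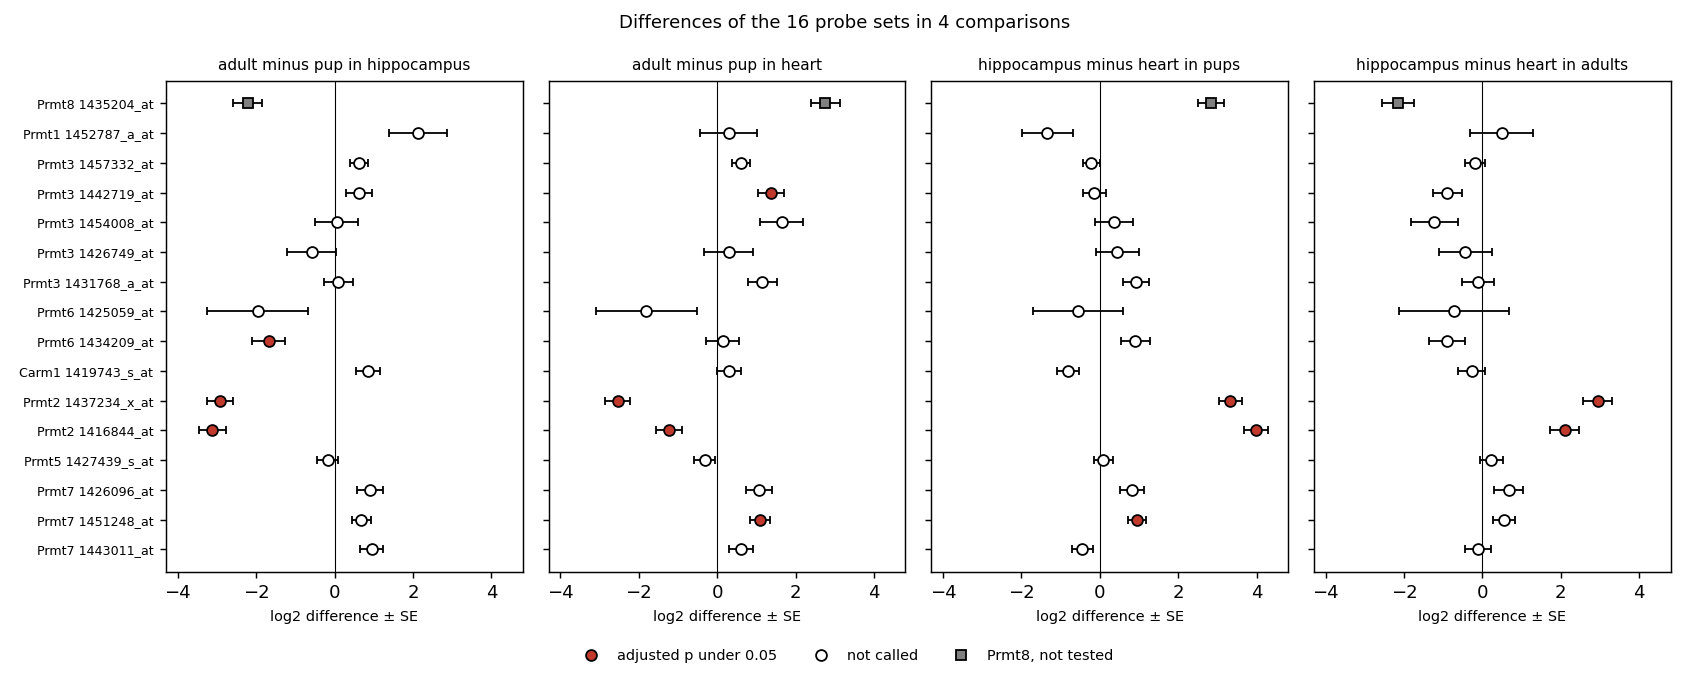
Log2 differences ± SE from limma (x axis) of the 16 probe sets (y axis) in 4 comparisons; red points had an adjusted p under 0.05, white points were not called, and the grey square is Prmt8, which was not tested. Both Prmt2 probe sets were called in each comparison, and Prmt8 changed sign between tissues (-2.22 in hippocampus, 2.76 in heart) and between ages (2.84 in pups, -2.14 in adults).

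Other genes of the arginine methylation pathway were taken as 6 lists, 69 genes in all, of which 63 had a probe set of their own, the brightest standing for the gene. Of the 63, adult minus pup gave 6 higher and 12 lower in hippocampus (16.0% of 18193 genes were called on the same basis) and 3 higher and 14 lower in heart (20.6%). Most of the lower calls were substrate proteins, with 11 of 26 called lower and 2 higher in hippocampus and 11 called lower and 1 higher in heart. Without pup hippocampus replicate 1, the 63 gave 2 higher and 9 lower in hippocampus, of which 1 and 8 were substrates, and 3 higher and 12 lower in heart. The share of all genes called was then 11.3% in hippocampus and 18.6% in heart. The median difference over the substrates was -0.63 in hippocampus and -0.73 in heart, beside 0.09 and 0.07 over all genes. The mean of 3 genes of proliferating cells moved with age too, at 7.17 to 7.25 in adult hippocampus and 7.86 to 7.90 in adult heart, against 8.01 to 8.23 in pup hippocampus and 8.39 to 9.98 in pup heart. Of these 3, 0 were called lower in hippocampus and 1 in heart. The mean of 4 fibroblast genes was 10.85 to 11.22 in adult hippocampus and 11.66 to 11.71 in adult heart, against 11.97 to 12.22 in pup hippocampus and 13.11 to 13.93 in pup heart. Of these fibroblast genes, 2 were called lower in hippocampus and 2 in heart. Col1a1 went the other way in hippocampus, at 12.125 and 12.305 in adults against 11.45, 11.34 and 11.01 in pups. The mean of 4 endothelium genes was 10.17 to 10.47 in adult hippocampus and 10.59 to 10.60 in adult heart, against 10.62 to 11.03 in pup hippocampus and 12.64 to 13.04 in pup heart. Of these 4, 1 was called lower in hippocampus and 3 in heart. Pecam1 of that list read 12.22 and 11.41 in adult hippocampus, against 10.42, 9.48 and 10.27 in pup hippocampus. The mean of 3 smooth muscle genes was 10.50 to 10.78 in adult heart, against 11.32 to 11.73 in pup heart, with 2 called lower. The third, Myh11, read 9.556 and 9.568 in adult heart, against 9.199, 9.555 and 8.055 in pup heart. The mean of 3 oligodendrocyte genes was higher in adult hippocampus, at 10.93 to 11.05 against 9.42 to 10.12 in pups, with 1 called higher. Of 3 choroid plexus genes, Ttr read 11.46 and 12.04 in adult hippocampus, against 15.90, 15.54 and 15.82 in pup hippocampus. Kl went the other way, at 8.32 and 8.35 in adult against 7.36, 7.13 and 7.36 in pup hippocampus. Folr1 overlapped, at 10.72 and 8.02 against 9.62, 8.30 and 8.37. The part of these cell types in the member and substrate differences was not tested.

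Among the substrates, Rps2, a protein of the small ribosomal subunit and the known target of Prmt3, averaged 10.98 in adult hippocampus against 14.66 in pup hippocampus, a difference of -3.68 ± 0.40 (limma adjusted p = 0.000978). In heart Rps2 fell as well, by a difference of -1.73 ± 0.40 (limma adjusted p = 0.0146). Its age differences in the tissues were not shown to differ (limma adjusted p = 0.0899). Hnrnpu and Hnrnpk, nuclear RNA-binding proteins, also fell in both tissues. Hnrnpu averaged 12.00 in adult hippocampus and 12.09 in adult heart, against 14.79 in pup hippocampus and 15.01 in pup heart (limma adjusted p = 0.000738 in hippocampus and 0.00047 in heart). Hnrnpk differed by -2.69 ± 0.59 in hippocampus and -3.37 ± 0.59 in heart (limma adjusted p = 0.0165 and 0.00445). The lower substrates also held Ewsr1, of the RNA-binding FET family, at -2.61 ± 0.51 in heart and -1.96 ± 0.51 in hippocampus. Rps2 and Ewsr1 were read on probe sets of the x_at type, which can pick up other transcripts. The higher ones were Fmr1, the translational regulator lost in fragile X syndrome, at 1.43 ± 0.30, and Elavl1, an mRNA-stabilizing protein, at 0.85 ± 0.22 in hippocampus, and in heart Taf15, another FET protein, at 1.46 ± 0.43.

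**Figure D4:**
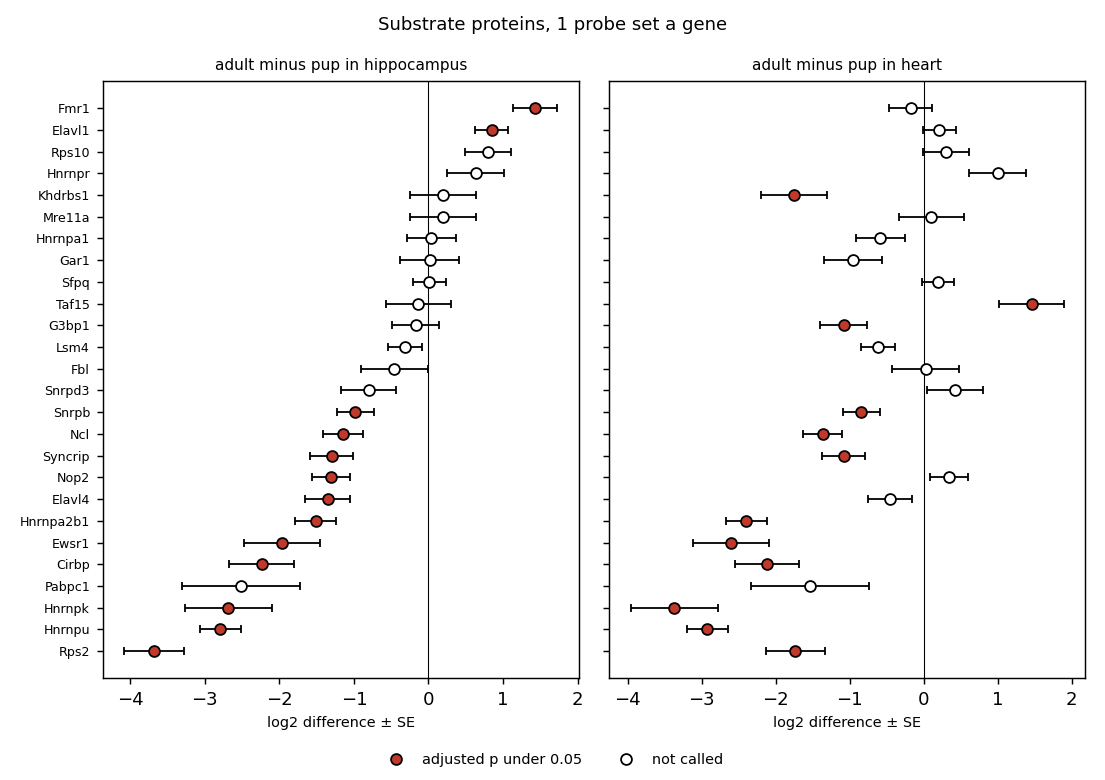
Log2 differences ± SE from limma (x axis), adult minus pup, for the 26 measured substrate proteins (y axis) in hippocampus and in heart; red points had an adjusted p under 0.05. In each tissue 11 substrates were called lower in adults, and Rps2 had the largest fall in hippocampus (-3.68) and Hnrnpk in heart (-3.37).

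The cofactors of Prmt5 included 1 that fell and 1 that rose in adult hippocampus. Clns1a, which presents Sm proteins to Prmt5, fell by 1.55 ± 0.26 on the log2 scale in hippocampus and by 1.62 ± 0.26 in heart (limma adjusted p = 0.00568 and 0.00305). Riok1, which competes with Clns1a for the same enzyme, averaged 12.47 in adult hippocampus against 10.35 in pup hippocampus, a rise of 2.12 ± 0.38 (limma adjusted p = 0.00722). Wdr77, the constant partner of Prmt5, was lower in adult hippocampus than in adult heart, with a difference of -1.67 ± 0.52 (limma adjusted p = 0.0444). Prmt9, the other type II enzyme, rose in adults in both tissues, by 1.40 ± 0.39 in hippocampus and 1.53 ± 0.39 in heart (limma adjusted p = 0.038 and 0.0213). Of 7 readers of methylarginine, the Tudor-domain proteins Tdrd7 and Tdrd3 rose in adult hippocampus, by 2.03 ± 0.55 and 1.00 ± 0.29 (limma adjusted p = 0.0365 and 0.0469), and none was called in heart. There Tdrd7 differed by 1.73 ± 0.55 and Tdrd3 by -0.31 ± 0.29 (limma adjusted p = 0.0531 and 0.493). For neither were the age differences of the tissues shown to differ (limma adjusted p = 0.871 and 0.111).

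Between tissues, hippocampus minus heart gave 7 higher and 1 lower of the 63 in pups (15.5% of all genes called) and 10 higher and 6 lower in adults (20.7%). The counts without pup hippocampus replicate 1 were 3 higher and 1 lower in pups (10.8% of all genes called) and 10 higher and 5 lower in adults (18.9%). Elavl4, the neuronal RNA-binding protein HuD that Carm1 methylates, was higher in hippocampus by 3.00 ± 0.27 in pups and 2.10 ± 0.33 in adults (limma adjusted p = 6.52e-05 and 0.00232). Mre11a, a DNA repair nuclease, was higher by 2.01 ± 0.40 in pups and 2.10 ± 0.48 in adults. Snrpd3, an Sm protein, was higher in hippocampus by 1.45 ± 0.33 in pups. In adults Hnrnpk was higher in hippocampus by 2.23 ± 0.64 (limma adjusted p = 0.0342), and Taf15 and Rps2 were lower, with differences of -1.69 ± 0.48 and -1.67 ± 0.44. Among the other writers, Fbxo11, an F-box protein of ubiquitin ligases once described as a methyltransferase, was higher in hippocampus by 0.87 ± 0.23 in pups and 1.15 ± 0.28 in adults. Mettl23, another arginine methyltransferase, was lower in adult hippocampus, with a difference of -1.17 ± 0.32. Riok1 was lower in pup hippocampus than in pup heart, with a difference of -1.58 ± 0.34 (limma adjusted p = 0.0116). In adults Jmjd6, an oxygenase once described as an arginine demethylase, was lower in hippocampus, with a difference of -3.99 ± 1.21 (limma adjusted p = 0.0414).

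Genes of the methyl donor cycle had 0 calls of 12 by age in hippocampus and 1 higher and 2 lower in heart. Mat2b, the regulatory subunit of the enzyme that makes S-adenosylmethionine, averaged 8.95 in adult heart against 10.89 in pup heart, a fall of 1.94 ± 0.33 on the log2 scale (limma adjusted p = 0.0042). Ahcyl1, a relative of the enzyme that removes S-adenosylhomocysteine, fell by 1.38 ± 0.28, and Mtrr, which reactivates methionine synthase, rose by 0.99 ± 0.22. Between adult tissues, Mat2b, Ahcyl1 and Ahcy, which removes S-adenosylhomocysteine, were higher in hippocampus by 1.77 ± 0.37, 1.49 ± 0.30 and 1.07 ± 0.31 in that order, and Mtrr was lower, with a difference of -0.94 ± 0.25. Ahcyl1 was also higher in hippocampus in pups, by 0.87 ± 0.25. The difference between age differences was called for 2 of the 63 (3.61% of all genes), Mat2b at 2.37 ± 0.47 (limma adjusted p = 0.0288) and the nucleolar protein Nop2 at -1.66 ± 0.36 (limma adjusted p = 0.0405). The call of Mat2b remained without pup hippocampus replicate 1, and that of Nop2 was lost, with 2.33% of all genes called.

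The genes whose pattern over the 10 samples lay closest to that of Prmt8 were Rnf180, Avpr1a, Kctd15, Camk1g, Samd14 and Eri3. Likeness was the root mean square difference on the log2 scale after each probe set was centred on its own mean, so they were picked for this pattern and are a description. The distances were 0.39, 0.44, 0.50, 0.53, 0.58 and 0.58 in that order, beside a median of 1.47 and a spread of 1.34 for Prmt8 itself. The 6 genes and the median were taken from probe sets with 1 gene other than Prmt8. Genes with clone or model names were passed over in both. Avpr1a, the vasopressin V1a receptor, averaged 6.44 in adult hippocampus, 8.90 in pup hippocampus, 8.27 in adult heart and 5.79 in pup heart. Camk1g, a calcium and calmodulin dependent kinase of neurons, averaged 9.12, 10.60, 11.32 and 9.00 in the same order of groups. Rnf180 is a membrane-bound ubiquitin ligase and Eri3 a putative exoribonuclease.

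**Figure D5:**
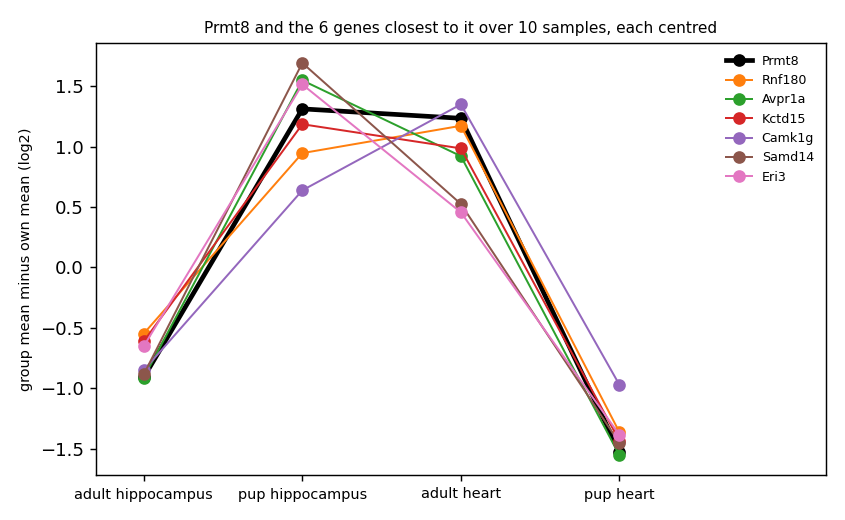
Group means minus each probe set's own mean over the 10 samples (y axis, log2) for Prmt8 (black) and the 6 genes closest to it, in adult hippocampus, pup hippocampus, adult heart and pup heart (x axis); lines join groups only to guide the eye. All 7 lay below their mean in adult hippocampus and pup heart and above it in pup hippocampus and adult heart, by -0.91, -1.53, 1.31 and 1.23 for Prmt8.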

How the data were processed

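Per the study's methods and the submitters' processing notes, the authors summarized the probes of each probe set with RMA 2.0, by the upper decile, and deposited log2 values. The deposited log2 values carry no detection calls and were neither centred nor percentile scaled, unlike the scaling the methods describe. Background correction is not given in the sources used here.

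Probe sets were named from the platform annotation. Of 45101, 34958 had 1 gene, 932 several and 9211 were unnamed here, and 64 array controls were left out. Technical arrays were averaged. The 45037 probe sets of 10 samples entered a limma fit (version 3.58.1, R 4.3.3) with 4 group means, 6 residual and 3.73 prior degrees of freedom, and 5 two-sided contrasts adjusted by Benjamini-Hochberg. Precision was limited by the few arrays, with a median SE of 0.34 for age differences, 0.30 and 0.37 for the tissue difference of pups and of adults, and 0.48 for the contrast of age differences. The fit was tested on simulated data. Figures used matplotlib 3.10.9.

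Every member probe set is described, brightest first. Pathway genes are named by the largest called differences, up to 3 each way per list and comparison, and 6 genes by likeness to Prmt8. The members and lists were chosen with earlier results of these data known. Alternatives covered normalization, scaling, dim probe sets, probe set choice, replication, variance model, samples in the fit, the methods' t-test, a replicate block and leaving out each sample.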

Additional observations from a re-analysis of the deposited data

Results flagged for a closer look

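Prmt8 moved opposite ways with age in the tissues. Its log2 values were 10.97 and 10.94 in adult hippocampus against 12.85, 13.11 and 13.56 in pup hippocampus, and 12.88 and 13.31 in adult heart against 10.71, 10.70 and 9.60 in pup heart. The age difference in hippocampus minus that in heart was -4.983, and this difference was not tested because the family was chosen with it in view.

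By the interaction term of limma, the age difference of Nop2 in hippocampus minus that in heart was -1.656 (adjusted p = 0.0405), with group means of 10.39 in adult and 11.69 in pup hippocampus and 10.59 in adult and 10.24 in pup heart. Nop2 was not called without pup hippocampus replicate 1. For Mat2b it was 2.368 (adjusted p = 0.0288), with group means of 10.72 in adult and 10.30 in pup hippocampus and 8.95 in adult and 10.89 in pup heart. Groups of 2 or 3 samples were too small to look for single outlying samples.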

How the results depend on the processing

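The count of called member probe sets (3 and 4 by age in hippocampus and heart, 3 and 2 between tissues in pups and adults, 0 for the difference between age differences) moved most with the number of probe sets and the error model. With 1 probe set a gene, 7 genes were tested and each of the first 4 comparisons gave 1 call, of Prmt2. With the mean over the probe sets of a gene, each tissue comparison gave 1. By age that setting gave 2 in hippocampus (1 higher and 1 lower) and 3 in heart (2 higher and 1 lower). With every array as a replicate the counts were 9, 7, 4 in adults and 2 for the difference between age differences. Calls over all probe sets rose too, to 10275 by age in hippocampus and 12189 by age in heart, against 6709 and 9011 in the main fit. With the methods' t-test they were 1, 0 and 0 by age in hippocampus, by age in heart and between adult tissues. Over all 45037 probe sets that test called 1887, 1 and 1 there. At its 0.1% false discovery rate 0 members were called in any comparison, with 0, 0, 0, 0 and 2 of all probe sets called. At that rate limma called 1, 0, 2, 1 and 0 members, beside 187, 407, 1503, 1020 and 3 of all probe sets. Leaving out 1 sample gave 2 to 5 calls by age in hippocampus, 1 to 6 in heart, 2 to 5 between pup tissues, 2 to 2 between adult tissues and 0 to 2 for the difference between age differences. When 1 pup sample was left out, calls over all probe sets ran between 3600 and 8763 by age in hippocampus and between 7660 and 10260 by age in heart. The lowest member count in heart came from a fit with 1 adult heart sample left. With only technical array 1 or only technical array 2 of each adult replicate, alternatives chosen after seeing the data, the count by age in heart was 4 or 5 and the others were as reported. The causes of these shifts were not tested, apart from fewer features or samples where the setting itself has fewer.

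The Prmt8 differences kept their sign under each alternative run, and of the other differences those with an unadjusted p under 0.05, 29 of 75, did so too. Of the 46 others, 19 changed sign in at least 1 alternative, the largest being 0.58 in size, and no direction is read from them. Median centring with percentile scaling moved the median adult minus pup difference of all probe sets in heart to -0.03, against 0.11 as deposited. The share of calls that were higher then was 47.5%, against 58.4%, and in hippocampus it was 47.6%, against 56.2%.

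The labels number replicates alike across tissues, but deviations of same-numbered pup samples correlated at 0.20, -0.08 and 0.01 and those of adults at -0.06, so the numbers were not taken as pairs. With the replicate block the counts were 3, 4, 3, 2 and 0, as without it. Detection above background could not be set from these values, so dim members such as Prmt3 1431768_a_at and Prmt7 1443011_at carry an unknown share of background, and values near 16 may understate differences.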
